A study of Mus musculus with 7 samples.

Results

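The IL-6 family genes were read out in lungs injured by bleomycin, an antibiotic that damages the lung lining and leaves scar tissue. They were chosen by name, as 10 genes of the 55401 in the count table: the ligands Il6, Il11, Lif and Osm, the receptor chains Il6ra, Il11ra1, Osmr and Il6st, the transcription factor gene Stat3 and the feedback inhibitor gene Socs3. All 10 had a row and all 10 passed the filter on low counts. The mice were male C57BL/6 animals, 6 to 8 weeks old, and all had received bleomycin. On day 7 they were divided into mice given hyperbaric oxygen (BLM+HBO, n = 3) and mice without it (BLM, n = 4). HBO is oxygen breathed under pressure, here at 2.5 ATA for 90 min per day over 14 days. Lungs were collected on day 21, with 1 RNA-seq library per mouse. The records differ on the BLM mice, placing them in the chamber at normal pressure or leaving them untreated. No mouse without bleomycin was among the 7, so levels before injury are not known from these libraries. Replicates were separate mice.

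Cytokines of this family share the signalling chain gp130, the product of Il6st. A ligand first binds its own receptor chain, such as the product of Il6ra for IL-6 or of Il11ra1 for IL-11, and gp130 then activates JAK kinases, which phosphorylate STAT3. LIF and oncostatin M signal through gp130 paired with a second long chain, encoded by Lifr or Osmr. STAT3 turns on Socs3, whose protein binds gp130 and JAK and shuts the signal off, so Socs3 mRNA is widely used as a readout of gp130 signalling. In the lung, IL-6 is made by macrophages, fibroblasts and epithelium, IL-11 mainly by stromal and epithelial cells, and oncostatin M mainly by myeloid cells. The family is known for acute phase responses and for acting on fibroblasts.

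Promoter windows are shown for the members with the lowest P, Socs3 and Il11, and for the ligands Lif and Il6, because a STAT or AP-1 motif lay in each. They come from RefSeq (GRCm38.p6), 250 bases before to 50 after the start of transcription, written 5′ to 3′ on the gene's strand. Capitals mark a STAT motif (TTCNNNGAA), an AP-1 motif (TGANTCA) or a hypoxia response core (ACGTG or GCGTG), each on either strand.
Socs3, chr11:117969317-117969616 (- strand): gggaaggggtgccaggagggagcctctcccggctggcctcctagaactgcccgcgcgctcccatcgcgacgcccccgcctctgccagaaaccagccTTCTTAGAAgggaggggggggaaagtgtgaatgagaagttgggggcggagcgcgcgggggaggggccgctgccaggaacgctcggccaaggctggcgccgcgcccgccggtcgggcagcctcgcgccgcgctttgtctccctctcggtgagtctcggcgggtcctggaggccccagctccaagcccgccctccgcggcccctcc
Il11, the second of 2 listed starts, chr7:4778092-4778391 (- strand): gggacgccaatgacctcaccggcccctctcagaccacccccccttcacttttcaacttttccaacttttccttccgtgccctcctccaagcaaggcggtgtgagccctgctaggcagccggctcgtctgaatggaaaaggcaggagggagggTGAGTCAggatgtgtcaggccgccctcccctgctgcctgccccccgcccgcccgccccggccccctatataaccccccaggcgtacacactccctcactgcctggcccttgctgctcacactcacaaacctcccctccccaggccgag
Lif, chr11:4257318-4257617 (+ strand): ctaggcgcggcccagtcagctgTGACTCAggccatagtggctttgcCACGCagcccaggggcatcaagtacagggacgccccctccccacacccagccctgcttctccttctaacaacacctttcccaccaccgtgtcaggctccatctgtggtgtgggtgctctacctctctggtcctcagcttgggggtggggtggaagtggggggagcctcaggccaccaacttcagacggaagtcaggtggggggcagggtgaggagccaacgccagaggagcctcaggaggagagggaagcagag
Il6, chr5:30012864-30013163 (+ strand): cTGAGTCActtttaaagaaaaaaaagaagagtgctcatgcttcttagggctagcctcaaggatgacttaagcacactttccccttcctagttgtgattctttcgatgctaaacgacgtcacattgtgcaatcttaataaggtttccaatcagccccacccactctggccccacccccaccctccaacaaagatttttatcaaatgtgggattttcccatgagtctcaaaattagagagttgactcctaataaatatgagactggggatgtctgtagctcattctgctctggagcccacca

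In the count table Socs3 spans chr11:117966079-117970047 and Il11 spans chr7:4772373-4782859, both on the minus strand of GRCm38, and both code for protein. The whole Socs3 window lay inside the counted Socs3 span, because the RefSeq start is downstream of the upstream end of that span. The window held the motif TTCTTAGAA, starting 154 bases before the RefSeq start of transcription. It was the STAT match of 1 member out of the 9 that had a window. Such a match lay in 8.30% of all 32851 windows and in 7.05% of the 15698 windows of tested genes. AP-1, the dimer of JUN and FOS proteins, had a match in 4 members. It was TGAGTCA in Il11 (98 bases before the start) and in Il6 (249 before), TGACTCA in Lif (228 before), and TGATTCA in Osmr (3 bases after). Of all windows, 7.81% held an AP-1 match, and of those of tested genes 5.79%. The hypoxia response core was found in 4 members, Lif, Il6ra, Osmr and Stat3. It lay in 43.8% of all windows and in 58.1% of those of tested genes. Members are counted by gene, and these shares are per window. Il11 and Il11ra1 had 2 windows each, and Osm was not in the table. A match is a run of letters and not a measured binding site.

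HBO was accompanied by lower mRNA of 2 members. Il11, a cytokine that acts on fibroblasts, was 3.14-fold lower in BLM+HBO, and Socs3 was 1.96-fold lower. Both passed the thresholds of the study, a fold change above 1.5 and a P below 0.05 before adjustment, both showed every BLM+HBO mouse below every BLM mouse, and 0 members were higher past the thresholds. The other 8 did not pass: Il6, Lif and Osm had lower means with wide spread, while Stat3 and the 4 receptor chains had log2 fold changes between -0.24 and 0.19. Of all 17465 tested genes, edgeR placed 2.89% lower and 3.40% higher past both thresholds. The 10 members had a median log2 fold change of -0.44, with 8 below 0, against 0.01 over all tested genes, of which 48.8% were below 0. The members were chosen with earlier results of these mice known, so this contrast is a description and not a test. After Benjamini-Hochberg adjustment edgeR called 0 members, as it called 0% of all tested genes, with 2 members and 10.7% of all genes at an unadjusted P below 0.05. DESeq2 called 2 members after adjustment, Il11 and Socs3, beside 0.918% of the genes it tested. Whole lung RNA was sequenced, so fewer cells of a type and less RNA per cell cannot be told apart.

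**Figure D1:**
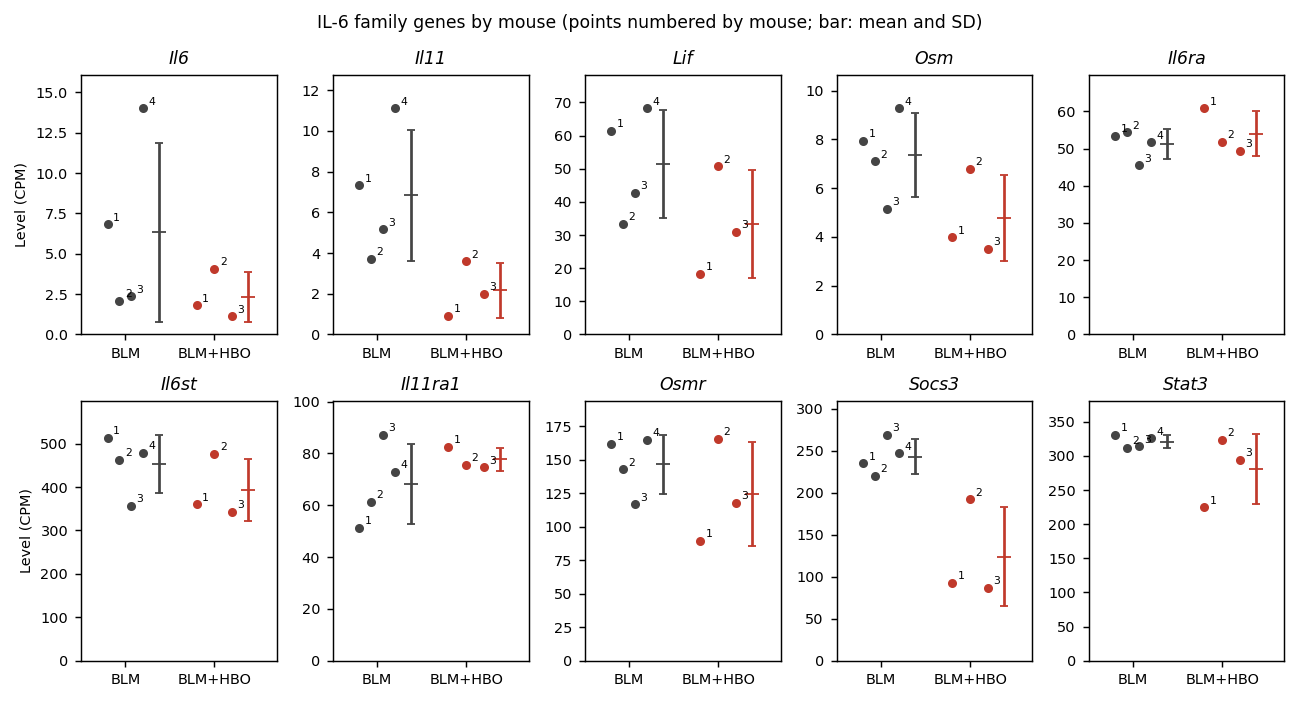
Level of each member in CPM (counts scaled to the library size, linear axes from 0) for the 4 BLM mice (grey) and 3 BLM+HBO mice (red), each point numbered by mouse, with the mean and SD beside the points. Il11 and Socs3 show no overlap between the groups, and BLM+HBO mouse 2 is inside the BLM range for 7 of the 10 members.

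Total counts ran from 18157161 to 26365969 per mouse, which gave the 2 scarcest members, Il6 and Il11, 618 and 648 reads over all 7 libraries, and Il6st 58998. The BLM+HBO mice were not alike. On the first principal component of all genes (37.3% of the variance) BLM+HBO mouse 2 lay at -0.996, the BLM mice between -47.6 and -6.08 and the other BLM+HBO mice at 37.8 and 54.9. Cell type markers moved too. Of 6 activated fibroblast markers, 5 were lower past both thresholds, with a summed level of 4880 to 7740 CPM in BLM and of 1630, 4830 and 2800 CPM in BLM+HBO mice 1 to 3. This sum was mostly Col1a1 and Col3a1. Of 5 mesothelial markers 2 were lower (422 to 715 CPM against 126 to 488), 1 of 6 AT2 markers was higher (8270 to 14900 CPM against 10500 to 26000) and 6 of 8 heart muscle markers were higher (60.4 to 174 CPM against 144 to 594). Of 7 monocyte and macrophage markers 1 was lower, Adgre1, and 5 had log2 fold changes below 0. Their sum (5050 to 6610 CPM against 5760 to 8420) was mostly Lyz2, which had a mean of 5410 CPM in BLM and 6570 in BLM+HBO and did not pass. Of 5 alveolar macrophage markers, 2 were higher and 1 lower (96.3 to 145 CPM against 75.0 to 107). By edgeR no AT1, endothelial, neutrophil or T cell marker passed, although the neutrophil sum reached 424 CPM in BLM+HBO mouse 1 against 122 to 191 in BLM. No marker was at 0 in any mouse, though Ly6g, a neutrophil marker at a mean of 0.165 CPM in BLM and 1.26 in BLM+HBO, was below the filter for edgeR. DESeq2, run without that filter, placed Ly6g (log2 fold change 2.92, adjusted P = 0.103) and the T cell marker Cd8a (0.70, adjusted P = 0.408) higher past both thresholds before adjustment. Lung markers were present in every library, with Sftpc, the surfactant protein C gene, at a mean of 7630 CPM in BLM and 12500 in BLM+HBO. The part of these shifts in the members' values was not tested.

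Among the ligands, Il11 had 7.32, 3.72, 5.16 and 11.1 CPM in BLM mice 1 to 4, and 0.905, 3.59 and 1.99 CPM in BLM+HBO mice 1 to 3. All BLM+HBO mice were below all BLM mice, but the highest of them, mouse 2, was only just below the lowest BLM mouse. The means were 6.82 ± 3.19 (SD, n = 4) and 2.16 ± 1.35 CPM (SD, n = 3). The log2 fold change was -1.65 ± 0.50 (SE, 95% interval -2.76 to -0.54; adjusted P = 0.423 by edgeR, 0.0362 by DESeq2). Raw counts were small, 66 to 210 reads in BLM and 17, 75 and 53 in BLM+HBO. The exact two-sided permutation test on log2 CPM gave P = 0.0571, the lowest value it can give as run here. Its P was 2 times the smaller one-sided P, which cannot fall below 0.0286 with the 35 assignments of the labels. In this form it could place no gene below 0.05. Groups without overlap in this direction were found for 4.72% of all tested genes, and in the other direction, which no member showed, for 4.05%.

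Il6, the cytokine that gives the family its name, varied most within BLM. Its levels were 6.83, 2.09, 2.36 and 14.0 CPM in BLM and 1.81, 4.07 and 1.12 CPM in BLM+HBO. BLM mice 2 and 3 lay inside the BLM+HBO range, so the difference in means, 6.31 ± 5.54 (SD, n = 4) against 2.33 ± 1.54 CPM (SD, n = 3), came with a coefficient of variation of 87.9% in BLM. With a log2 fold change of -1.44 ± 0.70 (SE, 95% interval -3.02 to 0.13) Il6 missed the P threshold (adjusted P = 0.50 by edgeR), and the exact permutation test gave P = 0.229. The interval takes in no difference and a fall larger than that of Il11. The size rested on single mice: it was -0.69 ± 0.60 (SE) without BLM mouse 4, the highest, and -2.12 ± 0.78 without BLM+HBO mouse 2.

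Lif, the leukaemia inhibitory factor gene, was the ligand with the highest level. It stood at 61.5, 33.3, 42.8 and 68.2 CPM in BLM and at 18.3, 50.7 and 31.0 CPM in BLM+HBO. Only BLM+HBO mouse 2 was inside the BLM range, and the log2 fold change of -0.63 ± 0.34 (SE) did not pass (adjusted P = 0.541 by edgeR). By the exact permutation test P was 0.229.

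Osm, the oncostatin M gene, lies next to Lif on chromosome 11, with 16530 bases between them. Its levels were 7.93, 7.10, 5.16 and 9.27 CPM in BLM and 3.99, 6.80 and 3.52 CPM in BLM+HBO. BLM+HBO mouse 2 was inside the BLM range, as it was for Lif, and the other BLM+HBO mice were below it for both genes. The log2 fold change of Osm was -0.63 ± 0.30 (SE; adjusted P = 0.492 by edgeR), and the exact permutation test gave P = 0.114. DESeq2 placed Osm past both thresholds before adjustment but not after it (adjusted P = 0.386).

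All 4 ligands were highest in BLM mouse 4. In BLM+HBO, mouse 2 was the highest for each of them.

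The receptor chains differed less. Il6st, encoding gp130, had 513, 463, 357 and 479 CPM in BLM and 360, 476 and 343 CPM in BLM+HBO, with overlapping groups. Its log2 fold change was -0.21 ± 0.17 (SE, 95% interval -0.58 to 0.17; adjusted P = 0.674 by edgeR). Il6ra, the IL-6 binding chain, was between 45.5 and 54.4 CPM in BLM and between 49.4 and 60.8 CPM in BLM+HBO. It was the tightest of the receptors within BLM, and its log2 fold change of 0.07 ± 0.11 (SE, 95% interval -0.18 to 0.33; adjusted P = 0.845 by edgeR) leaves out a change of 1.5-fold in either direction.

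Osmr, the oncostatin M binding chain, stood at 162, 143, 117 and 165 CPM in BLM and at 89.6, 166 and 118 CPM in BLM+HBO. BLM+HBO mouse 2 was above every BLM mouse, mouse 1 was below all of them, and mouse 3 was inside the range. The log2 fold change was -0.24 ± 0.20 (SE; adjusted P = 0.697 by edgeR). Il11ra1, the chain that binds IL-11, had 51.4, 61.3, 87.2 and 72.8 CPM in BLM and 82.6, 75.7 and 74.7 CPM in BLM+HBO, which gave a log2 fold change of 0.19 ± 0.17 (SE, 95% interval -0.18 to 0.56; adjusted P = 0.708 by edgeR). Its groups overlapped, unlike those of its ligand gene.

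Counts of Il11ra1 carry a limit that the other members largely lack. Of the 100-base stretches of its longest transcript, 42.7% also occur in Gm13305 or Il11ra2, near-identical copies, and reads that map to several places are left out by default. Il11ra2 had 14 reads over the 7 libraries and Gm13305 had 0. For Il6ra the shared part was 1.67%, with Gm42809, and for the other 8 members it was 0%.

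Downstream, Stat3 itself was close to constant in BLM, at 331, 312, 314 and 326 CPM, with a coefficient of variation of 2.87%. In BLM+HBO it had 225, 324 and 294 CPM, so mice 1 and 3 were below the BLM range and mouse 2 inside it. The log2 fold change was -0.19 ± 0.13 (SE, 95% interval -0.49 to 0.11; adjusted P = 0.628 by edgeR), with P = 0.171 by the exact permutation test. Activity of STAT3 depends on phosphorylation, which these counts do not measure.

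Socs3, the feedback inhibitor, showed the clearest separation. It was measured at 235, 220, 269 and 247 CPM in BLM and at 92.9, 192 and 86.5 CPM in BLM+HBO. Mice 1 and 3 of BLM+HBO were far below the BLM range, and mouse 2 lay between them and the lowest BLM mouse. Means were 243 ± 20.6 (SD, n = 4) and 124 ± 59.3 CPM (SD, n = 3). The log2 fold change was -0.97 ± 0.26 (SE, 95% interval -1.55 to -0.39; adjusted P = 0.423 by edgeR, 0.0233 by DESeq2). Socs3 had 25829 reads over the 7 libraries. The exact two-sided permutation test gave P = 0.0571, again its lowest possible value.

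**Figure D2:**
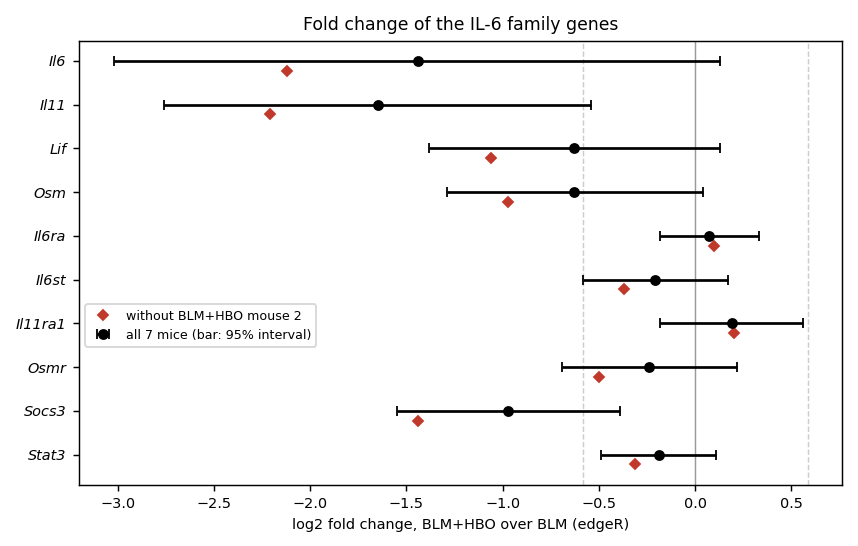
Log2 fold change of each member in BLM+HBO over BLM by edgeR, with all 7 mice (black, bar for the 95% interval) and without BLM+HBO mouse 2 (red); dashed lines mark a fold change of 1.5. The intervals of Il11 and Socs3 lie below 0, and leaving out mouse 2 moves Il6, Lif, Osm and Osmr further down. The fits without BLM+HBO mouse 1 or 3 are not drawn.

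Taking the mice one by one, BLM+HBO mice 1 and 3 were each below the whole BLM range for 7 of the 10 members, and mouse 2 for 2, Il11 and Socs3. Mouse 2 was inside the BLM range for 7 members and above it for Osmr. Without this mouse, 5 members were lower past both thresholds, against 5.41% of all genes tested in that fit. The members added were Il6, Lif (log2 fold change -1.06 ± 0.31, SE) and Osm (-0.97 ± 0.29), and Socs3 reached -1.44 ± 0.14 with an adjusted P of 0.00531 by edgeR. Leaving out BLM+HBO mouse 1 or 3 instead moved the ligands and Socs3 closer to 0. Without mouse 1, the log2 fold changes were -1.3 for Il6, -1.3 for Il11, -0.33 for Lif, -0.52 for Osm and -0.8 for Socs3. Without mouse 3 they were -1.1, -1.59, -0.58, -0.45 and -0.77. BLM mice moved the values in both directions. Without BLM mouse 2, 4 members passed (Il6, Il11, Lif and Socs3; 2.43% of all genes lower), and without BLM mouse 3, 4 passed (Il6, Il11, Osm and Socs3; 2.88%). Without BLM mouse 4, the ligands came closer to 0, with log2 fold changes of -0.69 for Il6, -1.32 for Il11, -0.46 for Lif and -0.50 for Osm, and 2 members passed. In each of the 7 fits that left out a mouse, Il11 and Socs3 were past both thresholds. The same summed fibroblast markers as above put mouse 2 at 4830 CPM, next to the BLM mice. That sum was mostly Col1a1 and Col3a1, at 1810 and 2040 CPM in mouse 2.

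Compared per length, as CPM per kilobase of exon, the members spanned a wide range of levels. Socs3 was the highest in BLM at 84.0 ± 7.13 (SD), with every mouse above every value of the next gene, Il6st (40.8 ± 6.10). Then came Stat3 at 33.7 ± 0.967, whose range overlapped that of Il6st. Below them and apart lay Il11ra1 (15.3 ± 3.45), Osmr (12.1 ± 1.81) and Lif (11.8 ± 3.73), neighbours with overlapping ranges. Il6ra followed at 5.93 ± 0.461, apart from Lif but overlapping the highest mouse of Il11, and the order ended with Il11 (3.28 ± 1.53), Osm (3.24 ± 0.757) and Il6 (2.60 ± 2.28), which overlapped from one to the next. In BLM+HBO the mean of Socs3 was 42.8 ± 20.5 CPM per kilobase and its range overlapped that of Il6st (35.4 ± 6.50). Il11 (1.04 ± 0.649) came after Osm (2.10 ± 0.779) there, again with overlapping ranges. Exon length counts all annotated exons, so genes with long rarely used exons get a lower value per kilobase.

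**Figure D3:**
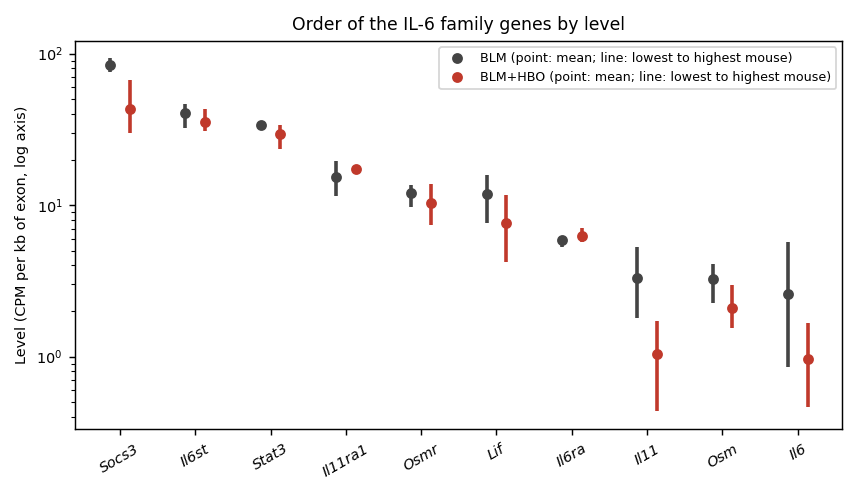
Level of each member in CPM per kilobase of exon (log axis), ordered by the BLM mean, with points for group means and lines from the lowest to the highest mouse in BLM (grey, n = 4) and BLM+HBO (red, n = 3). Socs3 stands above Il6st in BLM and overlaps it in BLM+HBO, and 3 of the 4 ligands are at the low end.

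Il11, Il6 and Osm also shared a feature of their mRNA tails. The pentamer ATTTA, the core of AU-rich elements that are known to shorten mRNA life, occurred 10 times in the longest annotated 3′ UTR of Il11, 8.38 per kilobase, a density reached by 0.830% of 14451 tested genes. Il6 had 10 (6.00 per kilobase, reached by 2.86%) and Osm had 6 (5.90 per kilobase, reached by 3.02%). Lif, with 7 in a longer tail, had 2.2 per kilobase, and Socs3 had 4, or 2.71 per kilobase. The median gene had 1.22. Stat3 and Il6ra were below it at 0.540 and 0.563, and Il11ra1 had none. Osmr had 2.23 and Il6st 1.60 per kilobase.

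Genes whose pattern over the 7 mice was most like Socs3, by the root mean square difference of z-scored log2 CPM, were Gars (0.111), a glycyl-tRNA synthetase gene, Prelid3b (0.151) and Acot9 (0.161), a mitochondrial thioesterase gene. For Il11 they were Smarcc1 (0.161), a chromatin remodelling subunit gene, Myd88 (0.181), the adaptor of Toll-like and IL-1 receptors, and Nolc1 (0.202), a nucleolar protein gene. These genes followed the order of the mice but not the size: Gars had a log2 fold change of -0.33 and Smarcc1 of -0.20. The likeness is a description over 7 libraries that share 2 groups.

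Beyond the 10 members, 43 other genes of gp130 signalling were examined in 7 groups by role, and 39 of them passed the filter on low counts. Past both thresholds, 4 were lower and 0 higher in BLM+HBO, beside 2.89% lower and 3.40% higher over all tested genes, and the median log2 fold change of the 39 was -0.17, beside 0.01 over all genes. The calls in the other direction depended on single mice: Il27ra and Clcf1 were higher past both thresholds without BLM mouse 4 (0.75 and 0.63), and Il27ra without BLM+HBO mouse 3 (0.66). The 4 were Myc and Timp1 among the STAT3 targets, and Lrg1 and Serpina3n among the acute phase genes. Lists were chosen with earlier results of these mice known.

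**Figure D4:**
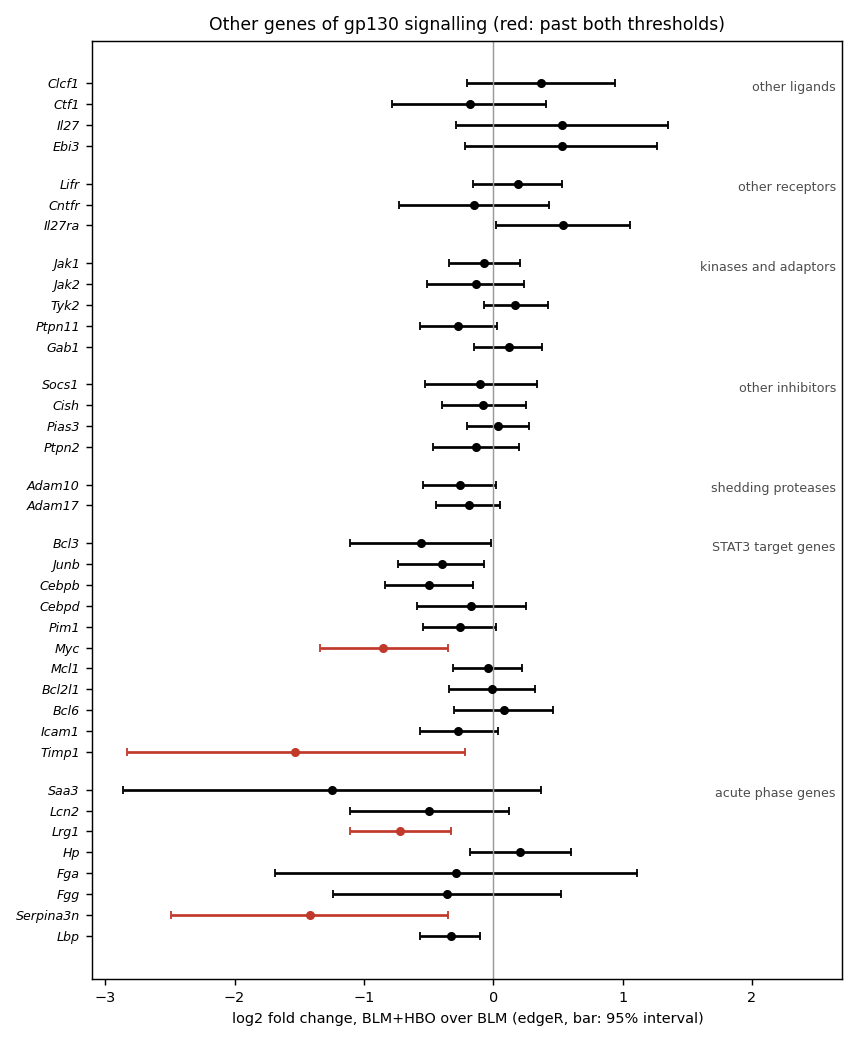
Log2 fold change in BLM+HBO over BLM (edgeR, bar for the 95% interval) of 37 other gp130 signalling genes that passed the filter, grouped by role, with the 4 genes past both thresholds in red. All 4 lie among STAT3 targets and acute phase genes, and ligands, receptors, kinases and inhibitors lie on both sides of 0.

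Of 7 other ligands and ligand partners, 5 were tested and 0 passed, with a median log2 fold change of 0.37. Of these, 3 were above 0 and 2 below, among them Ctf1 at -0.18 ± 0.27 (SE). Cntf and Ctf2 were below the filter. Clcf1, a cardiotrophin-like cytokine gene, had 0.37 ± 0.25 (SE). Il27 and Ebi3, which encode the chains of IL-27, both had 0.53, from means of 0.562 and 1.87 CPM in BLM. The groups did not overlap for Il27, which was higher in every BLM+HBO mouse, as were 4.05% of all tested genes. Il27 had only 95 reads over all libraries and missed the P threshold (adjusted P = 0.622 by edgeR).

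Other receptor genes gave 0 calls among 3 tested. Lifr, the partner of gp130 for LIF, had 95.4 CPM in BLM and 108 CPM in BLM+HBO, which made a log2 fold change of 0.19 ± 0.15 (SE). Il27ra, the IL-27 receptor, passed the P but not the fold threshold at 0.54 ± 0.23 (SE; adjusted P = 0.461 by edgeR). Cntfr had -0.15, and Il11ra2 was below the filter.

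Kinases and adaptors gave 0 calls among 6. Jak1, Jak2 and Tyk2, the kinases bound to gp130, had log2 fold changes of -0.07, -0.13 and 0.17. Ptpn11, a phosphatase that docks on gp130, had -0.27 ± 0.13 (SE; adjusted P = 0.509 by edgeR), and Gab1, an adaptor, had 0.12 ± 0.12 (SE).

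Among 4 other inhibitors, 0 passed: Socs1 and Cish, relatives of Socs3, had log2 fold changes of -0.10 ± 0.19 and -0.08 ± 0.15 (SE), Pias3 0.04 and Ptpn2 -0.13. Adam10 and Adam17, proteases that release receptor chains such as IL-6R from the cell surface, had -0.26 and -0.19 and did not pass.

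STAT3 targets gave 2 calls of 11, both lower, with 10 of 11 log2 fold changes below 0 and a median of -0.27. Over all tested genes 2.89% were called lower and 48.8% were below 0. Myc, a growth regulator, had 39.3, 30.4, 42.9 and 26.5 CPM in BLM and 19.1, 24.6 and 14.3 CPM in BLM+HBO. The groups did not overlap, and the log2 fold change was -0.85 ± 0.22 (SE; adjusted P = 0.423 by edgeR, 0.0362 by DESeq2). Timp1, an inhibitor of matrix proteases that many other signals also turn on, had 328, 232, 236 and 185 CPM in BLM and 23.5, 186 and 45.9 CPM in BLM+HBO. Here BLM+HBO mouse 2 was level with BLM mouse 4, and the log2 fold change of -1.53 ± 0.58 (SE; adjusted P = 0.438 by edgeR) became -2.82 ± 0.32 without that mouse. It lost its call without BLM mouse 1 (-1.36 ± 0.62, SE) and without BLM+HBO mouse 3 (-1.22 ± 0.64). Cebpb (-0.50 ± 0.15, SE), Junb (-0.40 ± 0.15) and Bcl3 (-0.56 ± 0.24) passed the P but not the fold threshold, and Icam1 had -0.27 with groups that did not overlap. Bcl3 passed both without BLM mouse 1 (-0.64), BLM mouse 2 (-0.63) or BLM+HBO mouse 2 (-0.82). It missed both without BLM mouse 3 (-0.51), BLM mouse 4 (-0.47) or BLM+HBO mouse 1 (-0.30). Without BLM+HBO mouse 3 (-0.61) it missed the P threshold. Cebpb passed both without BLM mouse 1 (-0.61). Mcl1, Bcl2l1 and Bcl6, the survival and repressor genes of the list, had -0.04, -0.01 and 0.08.

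Acute phase genes gave 2 calls of 8 tested, both lower, beside the same 2.89% of all genes. Lrg1, a secreted glycoprotein gene induced by IL-6 family cytokines, had 339, 493, 528 and 446 CPM in BLM and 231, 308 and 284 CPM in BLM+HBO. Every BLM+HBO mouse, mouse 2 included, was below every BLM mouse, and the log2 fold change was -0.72 ± 0.17 (SE; adjusted P = 0.423 by edgeR, 0.0170 by DESeq2). Serpina3n, a protease inhibitor gene, had 1180, 773, 421 and 456 CPM in BLM and 138, 469 and 185 CPM in BLM+HBO. Its groups overlapped through mouse 2, with a log2 fold change of -1.42 ± 0.48 (SE; adjusted P = 0.423 by edgeR) that became -2.13 ± 0.42 without mouse 2 and lost its call without BLM+HBO mouse 3 (-1.22 ± 0.55). Saa3, the serum amyloid gene active in lung, did not pass at -1.25 ± 0.72 (SE; adjusted P = 0.562 by edgeR), with 31.0 and 19.8 CPM in BLM+HBO mice 1 and 3 but 215 in mouse 2, inside the BLM range of 114 to 305. Without mouse 2 it had -3.06 ± 0.39 (SE; adjusted P = 0.0252 by edgeR). Lcn2, the lipocalin 2 gene, had -0.50, Lbp, which binds bacterial lipopolysaccharide, had -0.33 with groups that did not overlap, and Hp, the haptoglobin gene, had 0.21. The fibrinogen genes, made mainly in liver, were at 1.48 CPM (Fgg) or below in BLM, and Fgb was below the filter.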

How the data were processed

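RNA from the right lung lobes of 7 mice was sequenced as paired ends. The authors trimmed the reads, mapped them to GRCm38 with HISAT2 2.2.0 and deposited raw counts per gene made with featureCounts at default settings, which ignore strand and drop reads with more than one place or gene to go to. The annotation release was not given in the sources used here. Symbols came from GENCODE vM21 and gave 55141 of 55401 genes a name. The members and lists were chosen with earlier results of these data known.

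Low counts were removed with filterByExpr (minimum count 10, minimum total 15), and the rest scaled by TMM and tested over all 17465 genes with the quasi-likelihood test of edgeR 4.0.16 under R 4.3.3, with Benjamini-Hochberg adjustment. Levels are CPM on these scaled totals, and log2 CPM used a prior count of 2. A gene was called where its fold change exceeded 1.5 and its P before adjustment was below 0.05. Single members were also compared by exact two-sided permutation over 35 assignments, with P taken as 2 times the smaller one-sided P. Both tools were tested on simulated data. Alternatives were DESeq2 1.42.0, RLE factors, no filter on low counts, a replicate block, a fold change of 1.2 and leaving out each mouse. All 10 members were named, with other signalling genes past both thresholds or described in their group, and the 3 genes most like each called member. Of the tested signalling genes, 2 are counted in their groups but not reported here by name or drawn.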

Additional observations from a re-analysis of the deposited data

Results flagged for a closer look

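One value stood apart in the 4 BLM mice, the total count of BLM mouse 4. It was 19002242 reads, against 18436336 to 18452895 in the other 3, and its gap took 0.971 of the group's range, above Dixon's critical value for 4 samples. Of 11 quantities examined, the log2 CPM of the 10 members and the total count, 1 was past that limit, and chance passes it in about 1 of 20 groups. The BLM+HBO group of 3 was not examined in this way.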

How the results depend on the processing

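Il11 and Socs3 were past both thresholds by edgeR and DESeq2, with RLE factors, without the filter on low counts, with the replicate block and without each mouse. In the exact permutation test both had P = 0.0571 (-1.69 and -1.07 on log2 CPM). That is the lowest P this test can give with 35 assignments when P is 2 times the smaller one-sided P. In this form it could call no member. For Il11 and Socs3, adjusted P over the edgeR and DESeq2 alternatives ran from 0.0194 to 0.802 and from 0.00439 to 0.802. The count of 2 members rose to 5 with no filter on low counts and ran from 2 to 5 without single mice. At adjusted P below 0.05, the count of 0 members became 2 with DESeq2 and 2 with no filter, and ran from 0 to 1 without single mice. The 4 other signalling genes, all lower, became 7 with the replicate block, of which 2 were higher (Il27ra 0.73 and Clcf1 0.64). Both were also called higher without BLM mouse 4. The count ran from 3 to 7 without single mice. For the fits without the filter or with the block, the share of all genes called was not computed. Their counts can therefore not be set against all genes. Il6ra changed sign, to -0.02, without BLM+HBO mouse 1, and ran from -0.02 to 0.13 without single mice. Of 120 member fold changes under an alternative, 106 kept direction and side of the thresholds, 2 lost a call, 11 gained one and 1 changed sign. The 2 lost calls were those of Il11 and Socs3 in the permutation test, where no call was possible. The cause of these shifts was not tested.

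The replicate numbers gave no sign of pairing: same-numbered mice had correlations of deviations of -0.008, -0.066 and 0.161, against -0.179 to 0.165 for differently numbered mice. So few pairs cannot exclude a pairing. Number 4 exists only in BLM, so in the replicate block BLM mouse 4 carries no weight in the group comparison. The block is therefore close to the fit without that mouse. With the block, Il6 had -0.68, Il11 -1.41 and Socs3 -1.06, and 2 members passed. Without BLM mouse 4 they had -0.69, -1.32 and -0.96.

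With 4 and 3 mice, the intervals of Il6, Lif and Osm reach from no change to falls above 2-fold. Below 20 reads, as for Il11 in BLM+HBO mouse 1, counting adds to the spread.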
